A study of Homo sapiens with 8 samples.

Results

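Enzymes that add methyl groups to the lysines of histones, and enzymes that remove them, were followed in KYSE150 cells after knockdown of HNRNPC. The genes were taken by name: the KMT, KDM and SETD families, and SETDB1, SETDB2, EZH1, EZH2, EHMT1, EHMT2, SUV39H1, SUV39H2, NSD1, NSD2, NSD3, DOT1L, ASH1L and SMYD2. A count of at least 10 in at least 4 of the 8 samples was also required. Among 16082 genes deposited, 48 carried such a name and all 48 met the count rule, the lowest value being 44 counts for KDM8 in one library. They comprise 31 genes of methyltransferase families and 17 of demethylase families.

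Poly(A) RNA came from KYSE150, an established esophageal squamous cancer line, in 4 samples with the genotype ShHNRNPC, a short hairpin RNA against HNRNPC, and 4 samples with the genotype Control. Treatment was given as none for both groups. The labels do not say what hairpin or vector the control cells carried, whether the knockdown cells were 1 clone, or how long after the knockdown RNA was taken. HNRNPC encodes a nuclear protein that binds uridine tracts of nascent transcripts and affects splicing, and the series title concerns its action on BOLA3. The replicates are not stated to be independent cultures, so each p-value here reflects the spread between libraries, which may be technical.

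As background, methyl marks on histone lysines are read by residue. Methylation of H3K4 marks promoters and enhancers and is written by KMT2 and SETD1 enzymes in COMPASS complexes, whereas H3K9 methylation marks heterochromatin and H3K27 methylation, written by EZH1 or EZH2 in the Polycomb complex PRC2, marks repressed genes. H3K36 and H3K79 methylation accompany transcribed genes, and H4K20 methylation is tied to chromatin compaction and replication. The marks are erased by the flavin-dependent LSD enzymes KDM1A and KDM1B and by the JmjC dioxygenases, which use iron and oxoglutarate. Many of these enzymes are paralogs that share a target residue. Several of their genes, KMT2D and KMT2C among them, are often mutated in squamous cancers.

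Library totals were 28323403 to 34913500 counts. HNRNPC stood at 33.9 ± 1.80 CPM in shHNRNPC cells and 587 ± 12.5 CPM in control cells (SD, n = 4 each; CPM are counts relative to library size scaled by TMM), with a log2 fold change of -4.12 (SE 0.0272; edgeR adjusted p = 5.72e-75). The second principal component (4.51% of the variance) set shHNRNPC replicates 1 and 4 apart from 2 and 3. Of 12 squamous epithelial markers 11 were tested, 4 being higher and 7 lower, and they summed to 2979 to 3055 CPM in shHNRNPC libraries and 2248 to 2281 CPM in control libraries. KRT5 stood at 1123 ± 13.7 CPM in shHNRNPC cells and 565 ± 6.60 CPM in control cells and TP63 at 129 ± 1.63 CPM in shHNRNPC cells and 176 ± 2.14 CPM in control cells, while SOX2 had at most 4 counts in any library. Of 9 fibroblast markers 8 were in the table and 3 were tested, and they summed to 8.42 to 9.58 CPM in shHNRNPC libraries and 3.65 to 3.97 CPM in control libraries, mostly COL1A1. Immune markers (4 of 10 in the table, 1 tested) summed to 2.56 to 2.77 CPM in shHNRNPC libraries and 1.96 to 3.52 CPM in control libraries, and endothelial markers (5 of 7 in the table, 2 tested) to 1.24 to 1.91 CPM in shHNRNPC libraries and 2.19 to 2.52 CPM in control libraries. Of these, COL1A1 (log2 fold change 1.27) and LUM (1.58) passed the test as higher and VWF (-1.15) as lower. CSF1R, the immune marker tested, had at most 111 counts and did not pass. COL1A2, COL3A1, DCN and LYZ had at most 1 count in any library. Their part in the results was not tested.

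The enzymes moved in both directions and by small amounts. By edgeR's quasi-likelihood test 22 of the 48 genes rose and 16 fell at a Benjamini-Hochberg adjusted p below 0.05 over all genes tested, so that 79.2% were called. Of all 12001 genes tested 77.3% were called, 38.7% higher and 38.6% lower, so the share among these enzymes was near the background. DESeq2, run without edgeR's filter on low counts, called as many of the enzymes in each direction and 63.6% of the genes it tested. With edgeR and no such filter the share was 59.7%. Both shares are over other sets of genes than the 12001, so they are not directly comparable with 77.3%. The CPM of the groups did not overlap for 34 of the 48 genes, or 70.8%, which equals the share over all tested genes (70.8%). The median log2 fold change was 0.038 over the 48 genes and -0.0057 over all tested genes, and the median absolute log2 fold change was 0.27 against 0.30. KDM7A alone passed 2-fold. At 1.5-fold or more, 3 genes were higher (EHMT1, KDM1A and EZH2) and 5 were lower (KDM7A, SMYD2, SETD9, KDM1B and SETD7). These 8 genes are 16.7% of the enzymes, and 21.9% of all tested genes passed 1.5-fold. Of the 38 calls, 13 were below 1.2-fold. In bulk RNA, fewer cells expressing a gene and less RNA per cell cannot be told apart.

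**Figure D1:**
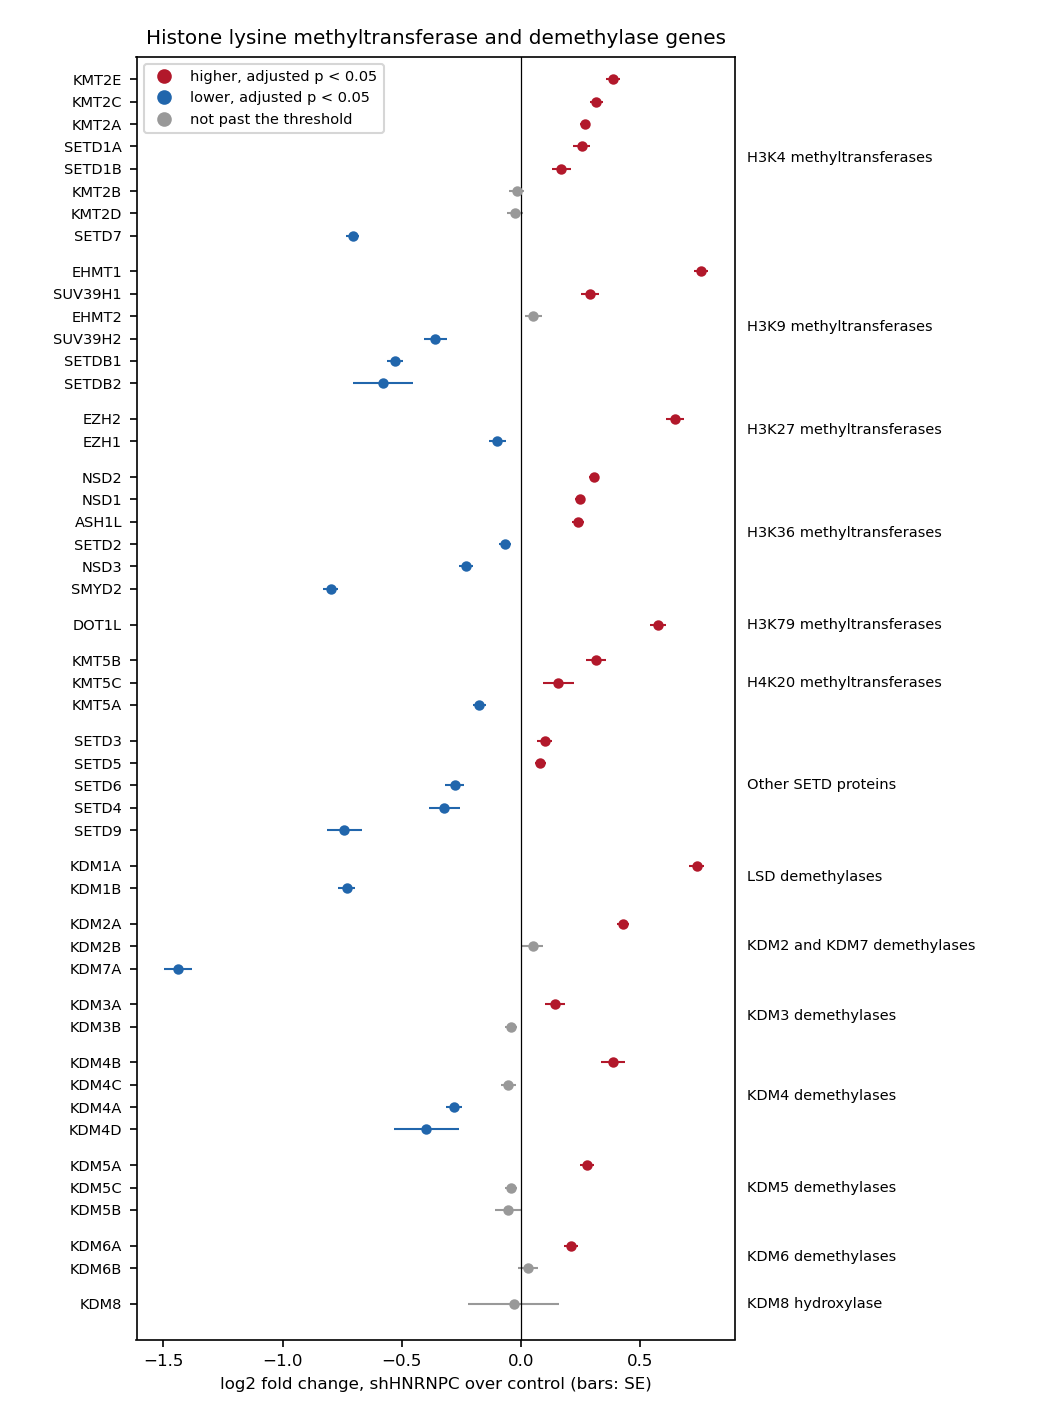
Log2 fold change (shHNRNPC over control, horizontal axis) of each of the 48 genes with its SE, grouped by target residue or family. Red points passed an adjusted p of 0.05 as higher (22 genes), blue as lower (16 genes), grey did not pass (10 genes); most groups hold points on both sides of 0, and KDM7A at -1.44 lies farthest from it.

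Counts of each residue group or family stand beside 38.7% of all tested genes higher and 38.6% lower, and no group was tested as a set. In the H3K4 group, SETD7 and the KMT2 and SETD1 families, 5 of 8 genes rose and 1, SETD7, fell. The 5 include KMT2E, which is listed here by its family. The large MLL-type enzyme KMT2A, a target of translocations in leukaemia, stood at 424 ± 5.78 CPM in shHNRNPC cells and 352 ± 4.45 CPM in control cells (log2 fold change 0.27, SE 0.0195, adjusted p = 1.43e-19). However, 18.9% of its annotated exon bases overlap other annotated genes. The protein-coding gene AP001267.5, on the same strand, covers 17.9%. KMT2C, the MLL3 enzyme of enhancers, rose by 0.32 on the log2 scale. A small part of its transcript, 2.14% of 100-base words, also occurs in transcripts of other genes such as BAGE2. KMT2E, which carries a SET domain without established catalytic activity, rose by 0.39 on the same scale. SETD1A (log2 fold change 0.25) and SETD1B (log2 fold change 0.17), the catalytic subunits of the SET1 complexes, rose as well.

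KMT2B and KMT2D had the smallest differences of all 48 genes. KMT2D, the MLL4 enzyme of enhancers, had 262, 263, 241 and 264 CPM in the shHNRNPC libraries, against 268, 259, 275 and 248 CPM in the control libraries. Its paralog KMT2B, which acts at promoters, had 89.4, 85.8, 81.2 and 85.6 CPM in the shHNRNPC libraries, against 85.7, 86.6, 91.0 and 83.0 CPM in the control libraries. The groups overlapped for both genes, with log2 fold changes of -0.027 (SE 0.0341, adjusted p = 0.482) and -0.019 (SE 0.0320, adjusted p = 0.60). In KMT2D, replicate 3 of the shHNRNPC samples was the lowest of all 8 libraries.

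SETD7 (on the RefSeq annotation of GRCh38: chromosome 4, 139492974 to 139556219) encodes an enzyme that monomethylates H3K4 and several non-histone proteins. It had 94.2, 90.4, 94.5 and 97.2 CPM in the shHNRNPC libraries, against 153, 151, 153 and 156 CPM in the control libraries. All knockdown libraries were below all control libraries, and the level was 61.3% of control (log2 fold change -0.71, SE 0.0268, adjusted p = 9.08e-34). Its annotated 3' UTR holds the word GAATGAT at 2 places. The word was chosen with earlier results of these data known, and the sites, from GENCODE release 29, are shown with the word in capitals because SETD7 and SMYD2, another carrier, had some of the largest falls.
SETD7, chr4:139509535-139509541, minus strand: agctatgctctGAATGATttcattcctgag
SETD7, chr4:139508403-139508409, minus strand: ccgacacaaagGAATGATgggatcaaaaag
The sites begin at bases 2122 and 3254 of a 3' UTR of 5627 bases. Further matches lie in the 3' UTR of another annotated SETD7 transcript.

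Writers of H3K9 methylation diverged, with 2 of 6 higher and 3 lower. EHMT1 (chromosome 9, 137619005 to 137836127), which encodes the GLP enzyme, had the largest rise of the 48 genes. It had 133, 129, 139 and 134 CPM in the shHNRNPC libraries, against 81.2, 78.5, 76.4 and 80.5 CPM in the control libraries, and no library of one group reached the other (log2 fold change 0.75, SE 0.0290, adjusted p = 1.71e-33). Its partner EHMT2, which encodes G9a and forms a heterodimer with GLP, had 60.9, 57.7, 57.8 and 60.5 CPM in the shHNRNPC libraries, against 60.0, 58.0, 53.7 and 56.7 CPM in the control libraries. Those groups overlapped (log2 fold change 0.051, SE 0.0372, adjusted p = 0.204).

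SETDB1 (chromosome 1, 150926263 to 150964737), the H3K9 trimethylase recruited by KRAB zinc finger proteins and TRIM28, fell. It had 60.6, 56.8, 57.5 and 54.4 CPM in the shHNRNPC libraries, against 84.7, 82.3, 82.1 and 82.0 CPM in the control libraries. The highest knockdown library was well below the lowest control library, and the level was 69.3% of control (log2 fold change -0.53, SE 0.0340, adjusted p = 3.44e-22). CERS2, on the opposite strand, overlaps 13.4% of the exon bases of SETDB1, and the strand setting is not stated. SETDB2 (chromosome 13, 49444274 to 49495003), its less abundant paralog, had 4.76, 3.05, 4.20 and 4.22 CPM in the shHNRNPC libraries, against 5.91, 6.64, 5.90 and 5.69 CPM in the control libraries. The groups did not overlap, and the relative change was similar in size but less precise (log2 fold change -0.58, SE 0.126, adjusted p = 3.81e-05).

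The heterochromatin enzymes SUV39H1 and SUV39H2 moved in opposite directions. SUV39H1, on the X chromosome, had 54.8, 59.1, 61.6 and 62.6 CPM in the shHNRNPC libraries, against 48.8, 49.0, 50.2 and 47.1 CPM in the control libraries and rose (log2 fold change 0.29, SE 0.0391, adjusted p = 1.34e-09). SUV39H2 had 25.8, 26.7, 28.7 and 27.5 CPM in the shHNRNPC libraries, against 34.8, 34.5, 34.0 and 36.4 CPM in the control libraries and fell (log2 fold change -0.36, SE 0.0486, adjusted p = 1.19e-09). Neither pair of groups overlapped. An antisense gene covers 20.3% of the exon bases of SUV39H1, and without a stated strand setting its reads cannot be told apart from those of SUV39H1.

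The PRC2 catalytic subunits also went opposite ways. EZH2 (chromosome 7, 148807383 to 148884291), the form that predominates in dividing cells, had 70.4, 70.4, 64.7 and 68.4 CPM in the shHNRNPC libraries, against 43.3, 43.0, 45.9 and 42.8 CPM in the control libraries. All knockdown libraries lay above all control libraries (log2 fold change 0.65, SE 0.0379, adjusted p = 4.95e-24). EZH1 (chromosome 17, 42700275 to 42745040), the form of non-dividing cells, had 56.7, 53.6, 53.8 and 56.3 CPM in the shHNRNPC libraries, against 58.7, 58.0, 59.9 and 59.6 CPM in the control libraries. Its groups were close but did not overlap (log2 fold change -0.10, SE 0.0362, adjusted p = 0.0104), and the call was lost without shHNRNPC replicate 2 (adjusted p = 0.0513). Cell cycle genes rose in the same libraries: all 16 G2/M genes of the list used here were higher, summing to 5654 to 5707 CPM in shHNRNPC libraries and 3047 to 3108 CPM in control libraries, and 10 of 16 G1/S genes were higher and 2 lower. Of all tested genes 38.7% were higher and 38.6% lower. Whether the rise of cell cycle genes has a part in the rise of EZH2 was not tested.

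The promoters of EZH2 and EZH1 are shown because each holds a match to an E2F word, while the transcripts moved apart. The words searched, on both strands, were TTTCCCGC, TTTCGCGC, TTTGCCGC and TTTGGCGC, and no match overlaps another in these windows. Promoters (250 bases before to 50 after the start) are from RefSeq, build GRCh38, and the match is in capitals.
EZH2, chr7:148884242-148884541, minus strand: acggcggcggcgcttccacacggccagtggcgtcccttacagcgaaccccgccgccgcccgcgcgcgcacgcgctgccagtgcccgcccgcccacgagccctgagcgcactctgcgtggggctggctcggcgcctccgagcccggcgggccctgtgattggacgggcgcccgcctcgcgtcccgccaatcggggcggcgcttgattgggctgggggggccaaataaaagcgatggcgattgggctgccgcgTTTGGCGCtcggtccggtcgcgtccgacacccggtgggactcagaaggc
EZH1, chr17:42744991-42745290, minus strand: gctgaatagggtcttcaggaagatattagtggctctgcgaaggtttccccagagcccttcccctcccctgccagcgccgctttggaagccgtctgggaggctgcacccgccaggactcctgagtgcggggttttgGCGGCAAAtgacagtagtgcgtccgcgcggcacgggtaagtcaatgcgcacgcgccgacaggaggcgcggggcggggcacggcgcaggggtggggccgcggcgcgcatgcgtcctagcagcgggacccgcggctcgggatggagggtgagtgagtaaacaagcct
The EZH2 match begins at base 2 of the transcript and reads on the gene's strand. The EZH1 match begins 115 bases before the start and is the reverse complement of TTTGCCGC. Of the 48 genes 45 (all but NSD3, DOT1L and SETD1B) had a promoter there, and 4 had a match, namely EZH2, EZH1, NSD2 (log2 fold change 0.30) and KDM1B (log2 fold change -0.73). Of these carriers 2 rose and 2 fell. Of all 27305 genes with a promoter given, 3.99% held a match, and of all 35116 promoters 3.31%.

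Among writers of H3K36 methylation 3 of 6 genes rose and 3 fell. NSD2, a dimethylase overexpressed in myeloma with the characteristic IGH translocation, had 302, 310.3, 313 and 311 CPM in the shHNRNPC libraries, against 253, 249, 249 and 252 CPM in the control libraries (log2 fold change 0.30, SE 0.0206, adjusted p = 4.96e-21). Its paralog NSD1 had 334, 349.7, 339.5 and 344 CPM in the shHNRNPC libraries, against 285, 295, 281 and 292 CPM in the control libraries (log2 fold change 0.25, SE 0.0208, adjusted p = 6.87e-17). Both rose with no overlap. NSD3, the third paralog, had 91.6, 90.7, 90.0 and 87.7 CPM in the shHNRNPC libraries, against 103, 107, 105 and 107 CPM in the control libraries and fell (log2 fold change -0.23, SE 0.0287, adjusted p = 7.9e-11). ASH1L, a further H3K36 dimethylase, rose by 0.24 on the log2 scale. SETD2, which trimethylates H3K36 behind elongating RNA polymerase, was lower by a small amount (159 ± 1.99 CPM in shHNRNPC cells and 167 ± 4.29 CPM in control cells, SD, n = 4 each; log2 fold change -0.069, SE 0.0243, adjusted p = 0.00881), and its groups overlapped.

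SMYD2 (chromosome 1, 214281159 to 214337131), which methylates H3K36 and non-histone proteins such as p53 and has been reported as overexpressed in esophageal squamous cancer, fell. It had 65.5, 72.7, 68.4 and 68.1 CPM in the shHNRNPC libraries, against 121, 121, 118 and 118 CPM in the control libraries. The groups were widely separated, and the level was 57.4% of control (log2 fold change -0.80, SE 0.0304, adjusted p = 1.01e-33). The word GAATGAT begins at base 317 of its 3' UTR of 347 bases.
SMYD2, chr1:214337101-214337107, plus strand: tgaacaaacttGAATGATgaaagtattaaa

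DOT1L (chromosome 19, 2163933 to 2232578), the writer of H3K79 methylation, was higher in every knockdown library than in any control library. It had 88.4, 90.5, 86.4 and 89.0 CPM in the shHNRNPC libraries, against 61.5, 57.7, 62.0 and 56.5 CPM in the control libraries (log2 fold change 0.57, SE 0.0335, adjusted p = 3.48e-24). Of the H4K20 writers 2 of 3 rose and 1 fell. KMT5B, a di- and trimethylase, rose by 0.31 on the log2 scale and its paralog KMT5C by 0.16 (adjusted p = 0.0256). The KMT5C call was lost without shHNRNPC replicate 2 (adjusted p = 0.0929) and without control replicate 1 (adjusted p = 0.0863). KMT5A, the H4K20 monomethylase whose protein level cycles with mitosis, stood at 87.3 ± 0.571 CPM in shHNRNPC cells and 98.5 ± 2.10 CPM in control cells (SD, n = 4 each) and fell (log2 fold change -0.17, SE 0.0291, adjusted p = 2.29e-07). For KMT5A 11.1% of the 100-base words of its transcript also occur in other genes, among them the pseudogene SETD8P1, so its count is uncertain. The remaining SETD genes were called in all 5 cases, with 2 higher and 3 lower.

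SETD9 (chromosome 5, 56909260 to 56928900), a little studied SET domain protein, had 9.44, 10.4, 11.1 and 9.85 CPM in the shHNRNPC libraries, against 17.1, 18.2, 15.8 and 17.2 CPM in the control libraries. The groups did not overlap (log2 fold change -0.74, SE 0.0750, adjusted p = 9.66e-14). SETD4 fell by 0.32 on the log2 scale and SETD6, which methylates the NF-kB subunit RELA, fell by 0.28 on the log2 scale, although 21.4% of SETD6 exon bases overlap CNOT1 on the opposite strand. SETD5, a chromatin regulator mutated in intellectual disability, had 331, 317, 304 and 319.5 CPM in the shHNRNPC libraries, against 305, 296, 310.2 and 291 CPM in the control libraries. Its groups overlapped and its change was small (log2 fold change 0.081, SE 0.0225, adjusted p = 0.00113). SETD3, an actin histidine methyltransferase despite its name, was higher by 0.10 on the log2 scale. The calls of SETD5 and SETD3 were lost without shHNRNPC replicates 1 and 4 (adjusted p = 0.0798 and 0.0559).

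**Figure D2:**
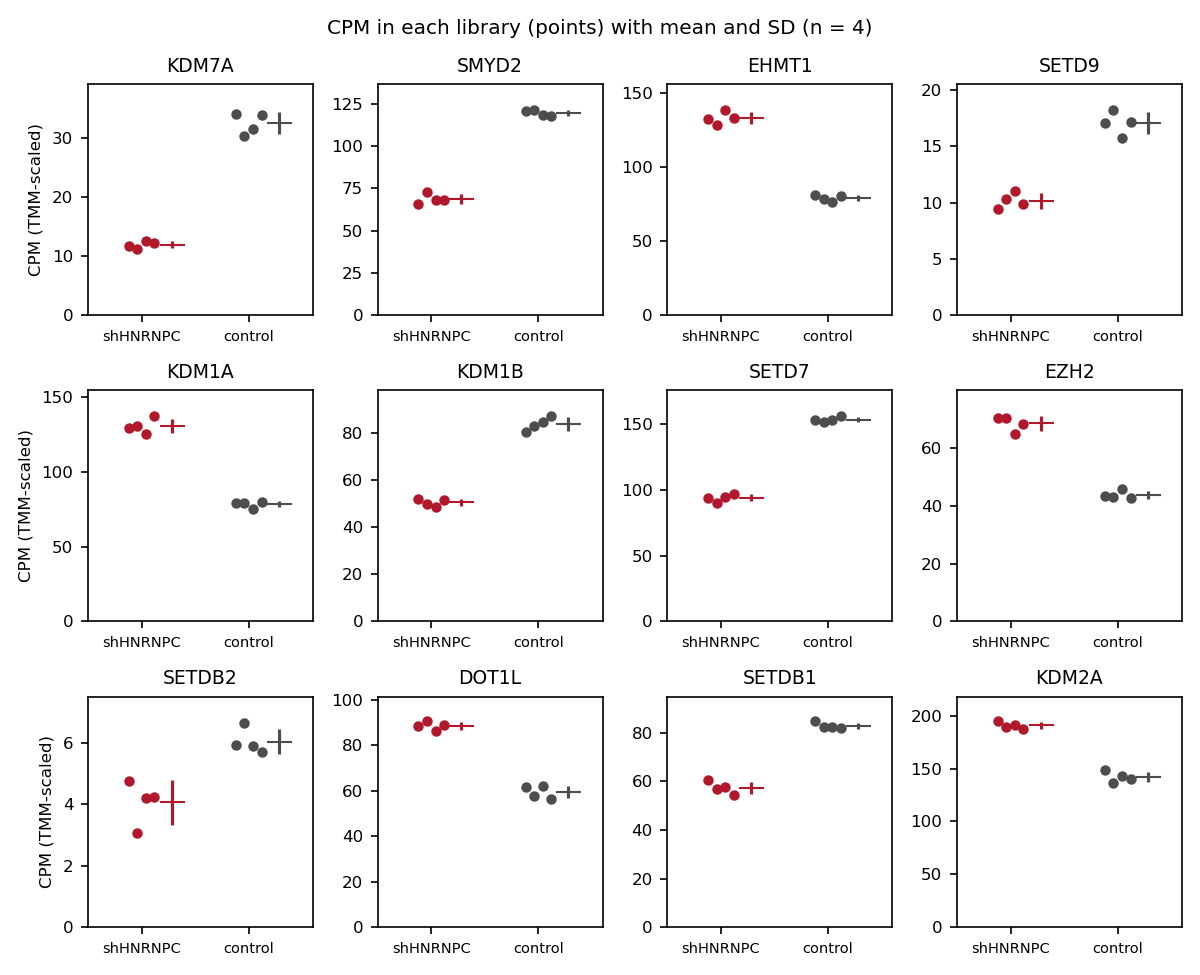
CPM (vertical axes from 0) of the 12 genes with the largest called log2 fold changes, one point per library, with the mean and SD beside them (n = 4 per group), shHNRNPC left and control right. The groups are separate in every panel, and KDM7A shows the widest relative gap, at 11.9 ± 0.591 CPM in shHNRNPC cells and 32.4 ± 1.86 CPM in control cells.

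Of 17 demethylase genes 6 rose and 4 fell (58.8% called), and of 31 methyltransferase genes 16 rose and 12 fell (90.3% called). Of all tested genes 77.3% were called, 38.7% higher and 38.6% lower. The difference between the families was not tested. In the KDM2 and KDM7 family 1 of 3 rose and 1 fell. KDM7A (chromosome 7, 140084746 to 140176983), a PHD-finger JmjC enzyme that removes methyl groups from H3K9 and H3K27, had the largest change of the 48 genes. It had 11.7, 11.3, 12.6 and 12.2 CPM in the shHNRNPC libraries, against 34.1, 30.2, 31.5 and 33.9 CPM in the control libraries. The highest knockdown library was far below the lowest control library, and the level was 36.9% of control (log2 fold change -1.44, SE 0.0589, adjusted p = 4.92e-32). Its relative KDM2A (chromosome 11, 67119263 to 67258082), which acts on H3K36 at CpG islands, had 195, 189.5, 191 and 187 CPM in the shHNRNPC libraries, against 149, 137, 143 and 139.9 CPM in the control libraries and rose without overlap (log2 fold change 0.43, SE 0.0250, adjusted p = 4.68e-24). KDM2B, the CpG island protein that recruits a variant Polycomb complex, was at 37.1 ± 1.07 CPM in shHNRNPC cells and 35.8 ± 1.16 CPM in control cells (log2 fold change 0.049, adjusted p = 0.320).

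The flavin-dependent demethylases moved apart by similar amounts. KDM1A (chromosome 1, 23019468 to 23083689), which encodes LSD1 of the CoREST complex and acts on H3K4, had 129, 131, 126 and 137 CPM in the shHNRNPC libraries, against 79.5, 79.3, 75.3 and 80.0 CPM in the control libraries and rose (log2 fold change 0.74, SE 0.0295, adjusted p = 1.78e-32). KDM1B (chromosome 6, 18155422 to 18223854), which encodes LSD2, had 51.9, 49.7, 48.7 and 51.8 CPM in the shHNRNPC libraries, against 80.4, 83.0, 84.8 and 87.2 CPM in the control libraries and fell (log2 fold change -0.73, SE 0.0349, adjusted p = 1.41e-28). In neither gene did a library of one group reach the other group.

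KDM4 enzymes, which act on trimethylated H3K9 and in some members on H3K36, also split, with 1 of 4 higher and 2 lower. KDM4B had 35.8, 33.8, 34.8 and 31.2 CPM in the shHNRNPC libraries, against 25.3, 26.0, 27.6 and 24.9 CPM in the control libraries and rose (log2 fold change 0.38, SE 0.0506, adjusted p = 5.63e-10). KDM4A had 72.3, 67.7, 74.0 and 71.7 CPM in the shHNRNPC libraries, against 84.2, 86.5, 85.6 and 91.0 CPM in the control libraries and fell (log2 fold change -0.28, SE 0.0327, adjusted p = 9.97e-12), with 48.5% of its exon bases covered by other annotated genes on either strand. KDM4D, whose counts were 101 to 187, had a log2 fold change of -0.40 with overlapping groups (adjusted p = 0.00668), and lost its call without shHNRNPC replicates 2 and 3 (adjusted p = 0.0889). KDM4C stood at 88.6 ± 2.53 CPM in shHNRNPC cells and 91.8 ± 3.22 CPM in control cells and did not pass (log2 fold change -0.053, adjusted p = 0.108), although it passed as lower without control replicate 4 (adjusted p = 0.030).

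Of the KDM3, KDM5 and KDM6 families 1 member each passed the test, as higher. KDM5A, an H3K4 demethylase first found as a retinoblastoma-binding protein, rose by 0.28 on the log2 scale. Its X-linked paralog KDM5C (log2 fold change -0.043, SE 0.0246) and KDM5B (log2 fold change -0.055, SE 0.0549) did not pass. KDM6A, the H3K27 demethylase UTX of the KMT2C and KMT2D complexes, rose by 0.21 on the log2 scale, and its inducible paralog KDM6B differed by 0.028 (SE 0.0403). KDM3A, a hypoxia-induced H3K9 demethylase, rose by 0.14 on the log2 scale, and KDM3B differed by -0.042 (SE 0.0263). KDM8, named as a demethylase but better known as a hydroxylase, had the lowest counts of the 48 genes, 44 to 90, and a log2 fold change of -0.032 with an SE of 0.191. At that depth a difference as large as the median absolute log2 fold change of the 48 genes (0.27) was within 2 SE.

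Levels were compared between genes as CPM per kilobase of the longest principal coding transcript in GENCODE release 29. On this scale SMYD2, SETD5 and NSD2 had the highest means over all 8 samples, but the order differed between the groups: SETD5 and KDM1A led in shHNRNPC cells, and SMYD2 and SETD5 led in control cells. SMYD2 stood at 41.1 ± 1.78 in shHNRNPC cells and 71.6 ± 0.941 in control cells, SETD5 at 46.6 ± 1.6 in shHNRNPC cells and 44.0 ± 1.27 in control cells and NSD2 at 39.5 ± 0.603 in shHNRNPC cells and 32.0 ± 0.257 in control cells CPM per kilobase (SD, n = 4 each). KDM1A reached 43.1 ± 1.62 in shHNRNPC cells and 25.9 ± 0.718 in control cells. The lowest were SETDB2 at 0.661 ± 0.117 in shHNRNPC cells and 0.983 ± 0.0675 in control cells and KDM8 at 0.920 ± 0.198 in shHNRNPC cells and 0.947 ± 0.182 in control cells.

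Summed by residue, the transcript level of the H3K36 group was 151 ± 2.95 in shHNRNPC cells and 169.9 ± 0.606 in control cells CPM per kilobase. Within it SMYD2, the shortest transcript, had the values given above. In CPM, not divided by length, the H3K36 group was higher in shHNRNPC cells, at 1145 ± 15.95 CPM in shHNRNPC cells and 1080.2 ± 4.13 CPM in control cells. The H3K4 group summed to 110.4 ± 1.70 in shHNRNPC cells and 106 ± 2.25 in control cells, and the H3K9 group to 84.2 ± 1.73 in shHNRNPC cells and 78.0 ± 1.18 in control cells CPM per kilobase. EZH1 and EZH2 together stood at 37.9 ± 1.2 in shHNRNPC cells and 29.4 ± 0.680 in control cells. The whole set of 31 methyltransferase genes summed to 545 ± 4.17 in shHNRNPC cells and 547 ± 4.52 in control cells, and the 17 demethylase genes to 232 ± 2.79 in shHNRNPC cells and 221 ± 0.919 in control cells CPM per kilobase. In CPM, the methyltransferase genes summed to 3546 ± 35.3 CPM in shHNRNPC cells and 3322 ± 33.0 CPM in control cells, without overlap between the groups, and the demethylase genes to 1237 ± 14.1 CPM in shHNRNPC cells and 1172 ± 7.72 CPM in control cells. For the H3K36 and methyltransferase sums the direction differed between the scales, and no sum was tested.

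**Figure D3:**
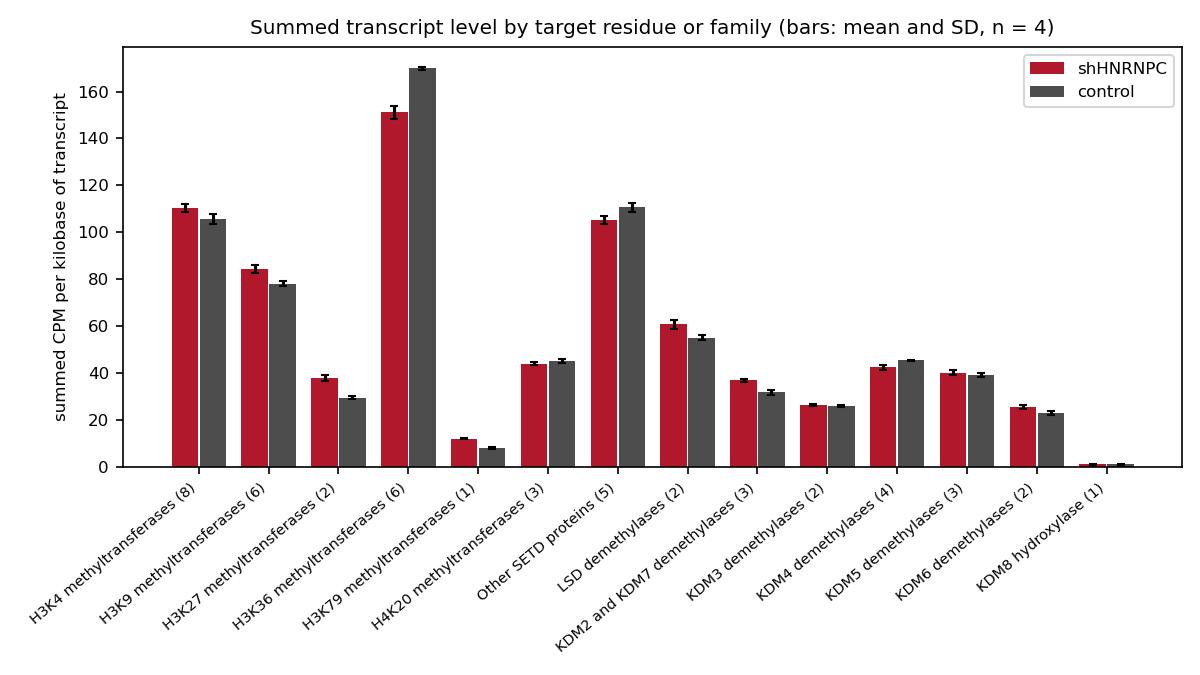
Summed CPM per kilobase of transcript (vertical axis from 0) for each residue group or family, with the number of genes in brackets, shHNRNPC left and control right of each pair (mean and SD over 4 libraries). On this scale the H3K36 group is the highest, at 151 ± 2.95 in shHNRNPC cells and 169.9 ± 0.606 in control cells, and most pairs of bars are of nearly equal height.

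The ratio of paralogs was then taken within each library, where it does not depend on scaling between libraries. For 18 pairs the log2 ratio of CPM plus 0.5 was compared by an exact two-sided permutation test over 70 assignments. The smallest p this allows is 0.0286, and p-values were adjusted over the 18 pairs. For 16 pairs the groups did not overlap (exact p = 0.0286, adjusted p = 0.0321 each), beside 70.8% of all single genes whose groups did not overlap. A ratio combines the changes of 2 genes, so the share of single genes is not a like measure. No share was computed for pairs of other genes. The pairs were chosen with earlier results of these data known, so these p-values do not show that paralogs shift more than other genes. NSD1, KDM4A and KDM5A each enter more than one pair. A ratio shows unequal change of 2 genes and not which of them moved.

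The largest shift was between KDM1B and KDM1A, whose log2 ratio was -1.36 ± 0.0417 in shHNRNPC libraries and 0.094 ± 0.0677 in control libraries (difference -1.46). It was below 0 in all knockdown libraries and above 0 in all control libraries. The ratio of EZH2 to EZH1 was 0.31 ± 0.0569 in shHNRNPC libraries and -0.43 ± 0.0387 in control libraries (difference 0.74). This ratio was above 0 in all knockdown libraries and below 0 in all control libraries. For EHMT2 over EHMT1 it was -1.17 ± 0.0617 in shHNRNPC libraries and -0.47 ± 0.0409 in control libraries (difference -0.70), and for KDM4B over KDM4A -1.06 ± 0.0891 in shHNRNPC libraries and -1.72 ± 0.0952 in control libraries (difference 0.66). SUV39H2 over SUV39H1 stood at -1.11 ± 0.0470 in shHNRNPC libraries and -0.48 ± 0.0798 in control libraries (difference -0.64), and NSD3 over NSD1 at -1.92 ± 0.0452 in shHNRNPC libraries and -1.44 ± 0.0206 in control libraries (difference -0.48). The other pairs without overlap shifted less, in absolute size from KDM2B over KDM2A (difference -0.38) down to NSD2 over NSD1 (difference 0.056). Among them only KDM4C over KDM4A (difference 0.23) and NSD2 over NSD1 were higher in shHNRNPC libraries. The 2 pairs that overlapped were SETD1B over SETD1A (difference -0.087, exact p = 0.143) and SETDB2 over SETDB1 (difference -0.0056, exact p = 0.943). SETDB2 had at most 224 counts, so its ratio was the least precise, with an SD of 0.226 among knockdown libraries.

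**Figure D4:**
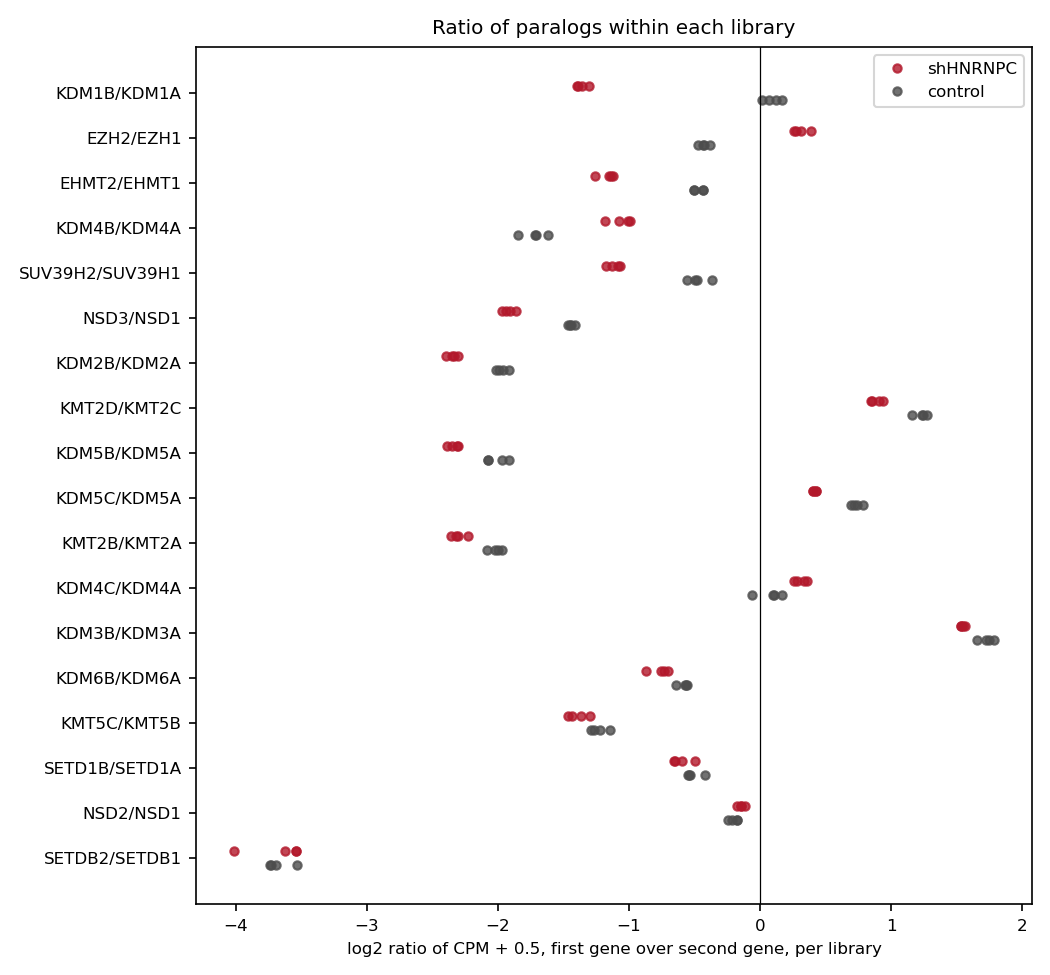
Log2 ratio of CPM + 0.5 for 18 pairs of paralogs (first gene over second, horizontal axis), one point per library, shHNRNPC above control within each pair. Points of the groups are separate for 16 pairs, and 0 separates the groups for EZH2/EZH1, at 0.31 in shHNRNPC and -0.43 in control libraries, and for KDM1B/KDM1A, at -1.36 in shHNRNPC and 0.094 in control libraries.

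Genes related to these enzymes were counted from 7 lists, which hold partner proteins, other histone lysine enzymes and a methyl donor group. Together 36 of 74 tested genes rose (48.6%) and 23 fell (31.1%), or 79.7% called. Over all tested genes 77.3% were called, 38.7% higher and 38.6% lower, and the counts of each list stand beside these shares. The lists were chosen with earlier results of these data known, and none was tested as a set. Among PRC2 partners 7 of 10 rose and 2 fell (median log2 fold change 0.16). The core subunits EED (log2 fold change 0.30) and SUZ12 (log2 fold change 0.26) rose, as did MTF2 (62.9 ± 1.43 CPM in shHNRNPC cells and 36.6 ± 0.890 CPM in control cells; log2 fold change 0.78, SE 0.0389, adjusted p = 1.41e-27), a Polycomb-like protein that brings PRC2 to DNA, while EPOP, a PRC2 modulator of low abundance, fell by 0.86 on the log2 scale. Among COMPASS partners 8 of 15 rose and 4 fell (median log2 fold change 0.086), with PAXIP1, a subunit of the KMT2C and KMT2D complexes, at a log2 fold change of 0.55, BOD1 at -0.53 and HCFC2 at -0.52.

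Among partners and readers of H3K9 methylation 6 of 10 rose and 2 fell (median log2 fold change 0.19). The heterochromatin proteins HP1 diverged: CBX1, or HP1-beta, stood at 197 ± 3.84 CPM in shHNRNPC cells and 113 ± 4.67 CPM in control cells (log2 fold change 0.80), CBX3 at a log2 fold change of 0.37, and CBX5, or HP1-alpha, at 169 ± 5.07 CPM in shHNRNPC cells and 252 ± 2.19 CPM in control cells (log2 fold change -0.58). TASOR, of the HUSH silencing complex, rose by 0.41 on the log2 scale. Among LSD1 complex partners 7 of 11 rose and 2 fell (median log2 fold change 0.19). ZMYM2 rose by 0.49 on the log2 scale, and RCOR1, the CoREST scaffold of KDM1A, was lower (-0.39). Among DOT1L partners 3 of 6 rose and 3 fell (median log2 fold change 0.14). Those that rose were MLLT3 (log2 fold change 1.04, at most 134 counts), AFF1 (0.52) and MLLT1 (0.36). These 3 are subunits of elongation complexes and fusion partners of KMT2A in leukaemia. MLLT6 (-0.29), AFF4 (-0.17) and MLLT10 (-0.073) fell.

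In the list of other histone lysine enzymes outside the name rule, 4 of 13 rose and 4 fell (median log2 fold change 0.021). MECOM (log2 fold change -0.83) and the nuclear receptor corepressor HR (-0.74) fell, and RIOX1 (0.69), a JmjC hydroxylase, rose. In the list around the methyl donor adenosylmethionine 1 of 9 genes rose and 6 fell (median -0.19). Not all of them make or recycle the donor. The list also holds AHCYL1 (log2 fold change -0.19) and AHCYL2 (-0.55), both among the 6 that fell, and NNMT, which did not pass. Methionine synthase, MTR, stood at 135 ± 3.62 CPM in shHNRNPC cells and 230.4 ± 4.64 CPM in control cells (log2 fold change -0.77, SE 0.0241, adjusted p = 1.67e-38), and its reductase MTRR fell (log2 fold change -0.58). The regulatory subunit MAT2B rose (log2 fold change 0.61), and MAT2A, the catalytic subunit that makes the donor, fell by 0.21 on the log2 scale. The 2 largest changes in the G2/M list were BIRC5 (log2 fold change 1.5) and AURKA (1.09), in the G1/S list MCM6 (1.12) and RRM2 (0.84, 20.2% of exon bases overlapping), and among squamous markers KRT17 (log2 fold change 1.70) and KRT6A (-1.62).

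**Figure D5:**
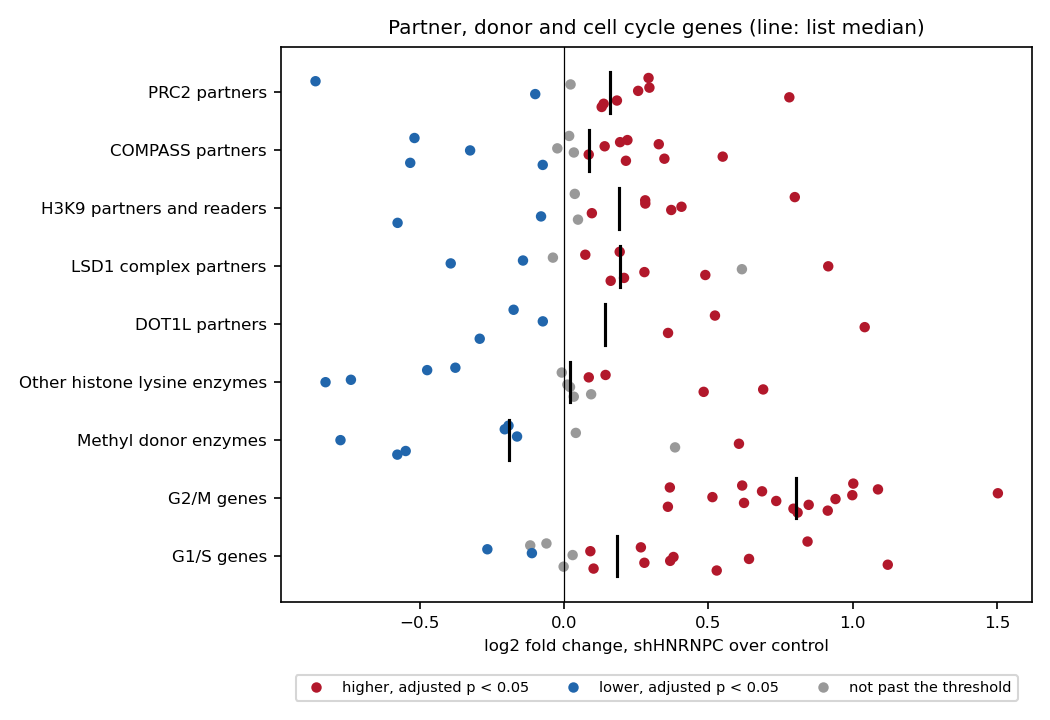
Log2 fold change (shHNRNPC over control, horizontal axis) of each tested gene in the 7 lists of related genes and 2 cell cycle lists. Red marks higher and blue lower at an adjusted p of 0.05, grey did not pass, and the black line is the list median. All 16 G2/M genes lie right of 0 (median 0.80), while the methyl donor list has a median of -0.19.

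The word GAATGAT lay in the 3' UTR of an annotated coding transcript of 6 of the 48 genes, the SETD7 and SMYD2 sites printed above among them. SMYD2, SETD7 and NSD3 were lower (log2 fold changes -0.80, -0.71 and -0.23), and KMT5B, NSD2 and SETD3 were higher (log2 fold changes 0.31, 0.30 and 0.10). For comparison, the site of the carrier with the largest rise, KMT5B, reads as follows.
KMT5B, chr11:68156929-68156935, minus strand: gttctttgcaaGAATGATtggtgcttattt
KDM7A, SETD9, KDM1B, SETDB2 and SETDB1, the other genes with the largest falls, had no match in these UTRs. Over all tested genes 53.7% of 1584 carriers fell and 27.4% rose, beside 36.5% that fell and 40.5% that rose of 10344 genes without the word. Because the word was chosen with earlier results of these data known, these shares are a description and no test. Carriers and other genes were not matched for 3' UTR length. A match describes these letters only, and its part in any change was not tested.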

How the data were processed

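Poly(A) RNA of 8 KYSE150 samples, 4 shHNRNPC and 4 control, was sequenced as paired-end reads. The authors deposited raw counts per gene for each sample. Low quality reads were dropped with fastp, per the series' design text. The submitters' processing notes name the build hg38. How reads were aligned and counted, with which annotation and strand setting, is not given in the sources used here. The genes, lists and pairs were chosen with earlier results of these data known.

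Genes were filtered with filterByExpr, which kept 12001, scaled by TMM and tested over all of them with edgeR 4.0.16 (R 4.3.3) by robust quasi-likelihood F tests with Benjamini-Hochberg adjustment. Log2 fold changes are shHNRNPC over control, and each SE was taken from the F statistic as |log2 fold change| over its root. The script was tested on simulated data. All 48 enzymes were named. Values per sample were printed for the 12 with the largest called changes, the 3 highest per length, the 2 smallest changes and the 6 pairs with the largest ratio differences. Up to 3 called genes of at least 1 CPM were named per list of related genes, and 2 per cell cycle or squamous list. A gene that this rule names is not reported here. SUZ12, CBX3, MAT2A, AHCYL1, AHCYL2, NNMT, MLLT6, MLLT10, AFF4 and the markers in the opening were named after their values were seen. Exon overlap, transcript length and 3' UTRs came from GENCODE release 29, matched by gene ID for 15961 genes, and promoters and gene positions from RefSeq on GRCh38. Shared sequence was the share of 100-base words of a transcript found in other genes. Same-numbered samples did not deviate together, so no replicate block was used. Alternatives were DESeq2 1.42.0, other scalings, other filters, other pseudocounts, a replicate block, each library left out and pairs of shHNRNPC libraries left out. Library totals of 28323403 to 34913500 counts limit only the rarest transcripts, and PCR copies were not separated.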

Additional observations from a re-analysis of the deposited data

Results flagged for a closer look

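Of 134 groups of 4 libraries examined (the CPM of each enzyme and of HNRNPC, and the paralog ratios, per group), 7 held a library whose gap to its nearest neighbour, as a ratio to the group's range, exceeded the 95% critical value of Dixon's test for 4 values. Chance alone flags about 1 group in 20. KDM5A in shHNRNPC replicate 3 stood at 116 CPM against 122 in the nearest library (ratio 0.959), and KMT2D in the same library at 241 CPM against 262 (ratio 0.928). In control replicate 3, EZH2 stood at 45.9 CPM against 43.3 (ratio 0.837), KDM1A at 75.3 CPM against 79.3 (ratio 0.842) and SETD1B at 46.4 CPM against 44.1 (ratio 0.884). SETDB1 in control replicate 1 stood at 84.7 CPM against 82.3 (ratio 0.907). The log2 ratio of SETD1B to SETD1A was -0.42 in control replicate 4 and -0.53 in the nearest control library (ratio 0.865). The calls of EZH2, KDM1A, KDM5A, SETD1B and SETDB1 held in each fit that left out 1 library.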

How the results depend on the processing

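HNRNPC was lower in every alternative (log2 fold change -4.16 to -4.06; -4.15 to -4.09 with 1 library left out). Enzymes called higher ranged from 21 to 22 and called lower from 15 to 17 with 1 library left out (75.0% to 75.8% of all genes called). DESeq2 gave 22 and 16 (63.6% of the genes it tested called), and no filter on low counts 22 and 16 (59.7%). Scaling by upper quartile or library totals gave 21 and 19 (77.2% of all genes called with each). The 42 genes without GAATGAT gave 19 and 13, beside 77.0% called of all tested genes without the word. The median log2 fold change, 0.038 as reported, was 0.012 with upper quartile scaling and 0.017 with library totals, and ranged from 0.031 to 0.067 with 1 library left out. Alternatives that left out shHNRNPC replicates 1 and 4, or 2 and 3, were added after seeing the data. They gave 20 higher and 16 lower (72.5% of all genes called), and 21 higher and 14 lower (72.1%). The median was 0.021 without replicates 1 and 4 and 0.075 without replicates 2 and 3. Pairs without overlap numbered 16 to 17. Partner genes numbered 32 to 37 higher and 21 to 23 lower. Of 38 called enzymes 33 kept their call in all 17 alternative fits, EZH1, KDM4D, KMT5C, SETD3 and SETD5 being the exceptions. KMT5C lost its call with both of those scalings, under which KDM3B, KDM4C and KDM5C passed as lower. Of the uncalled genes 4 changed sign. KDM8 was 0.16 and KDM6B -0.0058 without replicates 1 and 4. KMT2B was 0.016 and KMT2D 0.0033 without replicates 2 and 3. With 1 library left out, KDM8 ranged from -0.11 to 0.11, KMT2B from -0.037 to 0.0088 and KMT2D from -0.051 to 0.0065. The cause was not tested. A replicate block gave 22 higher, 16 lower, a median of 0.039, 35 and 22 partner genes and 16 pairs, HNRNPC at -4.11, and the same calls for all 48 enzymes. Deviations of same-numbered samples correlated at -0.055 to 0.017, so the numbers were not taken as pairs, and not every sample correlated best with its own number. Depth limits KDM8, KDM4D and SETDB2.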
